A study of Arabidopsis thaliana with 3 samples.

Results

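The DIG2 peak list gives places in the Arabidopsis thaliana genome where chromatin precipitated with a GFP-DIG2 fusion was called enriched. All rows of the list on chromosomes 1 to 5 were taken, and 1 peak is 1 distinct interval. This gave 13440 intervals holding 16562 summits, out of 24783 intervals in the whole series. The series holds 3 samples with 1 sample per group: the GFP-DIG2 fusion, a GFP-DIG1 fusion (11343 intervals) and GFP alone. All were whole seedlings of the accession Col-0, grown for 4 days in the dark in hydroponics and then given 10 uM dexamethasone for 6 h, and all were precipitated with the same antibody against GFP. Dexamethasone is a synthetic glucocorticoid commonly used in plants to switch on inducible transgenes, and the DIG2 sample's label carries the locus AT5G50360. The sources used here do not give the promoter that drove the fusions, the number of lines, the control used for peak calling or the read depth. How the GFP-alone sample entered the calls can therefore not be stated, and its own peaks were not analysed here.

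The series groups DIG2 with transcription factors of the response to abscisic acid (ABA), the plant hormone of drought, seed dormancy and stomatal closure. In the core pathway, ABA binds receptors of the PYR/PYL/RCAR family, the bound receptors hold back clade A PP2C phosphatases, SnRK2 kinases are then released, and the kinases switch on bZIP factors such as the ABFs. ChIP-seq of a tagged regulator shows where it is close to DNA, directly or through partners, and not whether the gene nearby responds.

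A single summit was the usual form of a DIG2 peak, and several listed summits were more frequent in strong, wide intervals. Of the 13440 intervals, 11129 (82.8%) held 1 summit, 1743 held 2, 407 held 3 and 109 held 4. A further 33 held 5, 12 held 6, 4 held 7, 2 held 8 and 1 held 9. In total 2311 intervals held 2 or more (17.2%, 95% Wilson interval 16.6 to 17.8%). Wilson intervals cover counting error only, since there is 1 list and no replicate to give a spread. Intervals were 225 to 6323 bp wide with a median of 577 bp. The median width was 519 bp with 1 summit, 1162 bp with 2, 1819 bp with 3 and 2578 bp with 4.

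Strength here is the authors' fold enrichment and −log10 p of each summit, used to rank and describe within the list. Folds of summits ran from 1.70 to 20.5 with a median of 3.80, and −log10 p from 16 to 1314 with a median of 76.1. The median fold of the strongest summit was 3.55 in intervals with 1 summit, 5.49 with 2, 7.51 with 3 and 8.28 with 4. When the intervals were ranked by −log10 p and cut into 5 equal parts, several summits were found in 37.5% of the strongest part (35.7 to 39.3%), then in 22.7%, 15.6% and 7.18%, and in 3.05% of the weakest (2.46 to 3.77%). Summits were listed only at a −log10 p of 16 or more and the strongest summits of the weakest part reached at most 30.1, so a second, lower summit there had little room to be listed. The part of this floor in the fall with strength was not tested. Within an interval with several summits, the second summit had a median of 0.694 of the strongest one's fold (quartiles 0.512 and 0.857). In the 407 intervals with 3 summits, the strongest stood first in 130, in the middle in 135 and last in 142, so no position stood out.

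The names of the summits run past what the list used here holds. Peak numbers in the names reached 18299 while 13440 distinct numbers were present, so 4859 numbers did not occur in it. MACS2 marks the summits of a divided peak with letters, and 869 of the 11129 intervals with 1 listed summit carried such a letter, 470 of them a letter later than the first. Across all intervals 701 earlier letters did not occur, and 3180 intervals (23.7%) carried a letter. Counts of summits per interval are therefore counts of listed summits, at a −log10 p of 16 or more.

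Neighbouring summits in 1 interval stood a median of 561 bp apart (quartiles 445 and 704 bp, 3122 pairs). The 95th percentile of these pairs was 998 bp. The fullest 100 bp bin was 401 to 500 bp, with 637 pairs, and the closest pair was 110 bp apart. Between neighbouring intervals, the nearest summits stood a median of 3732 bp apart (quartiles 1556 and 9278 bp, 13435 pairs). The narrowest gap between the edges of neighbouring intervals was 131 bp, the median gap was 3140 bp, and 15.0% were at most 500 bp. Over all neighbouring summits the median spacing per chromosome was 2397 to 2496 bp, a narrow range. The chromatin had been sonicated to 100 to 500 bp per the labels' protocols, and the part of fragment length and of the caller's own smoothing in the smallest spacings was not tested.

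**Figure D1:**
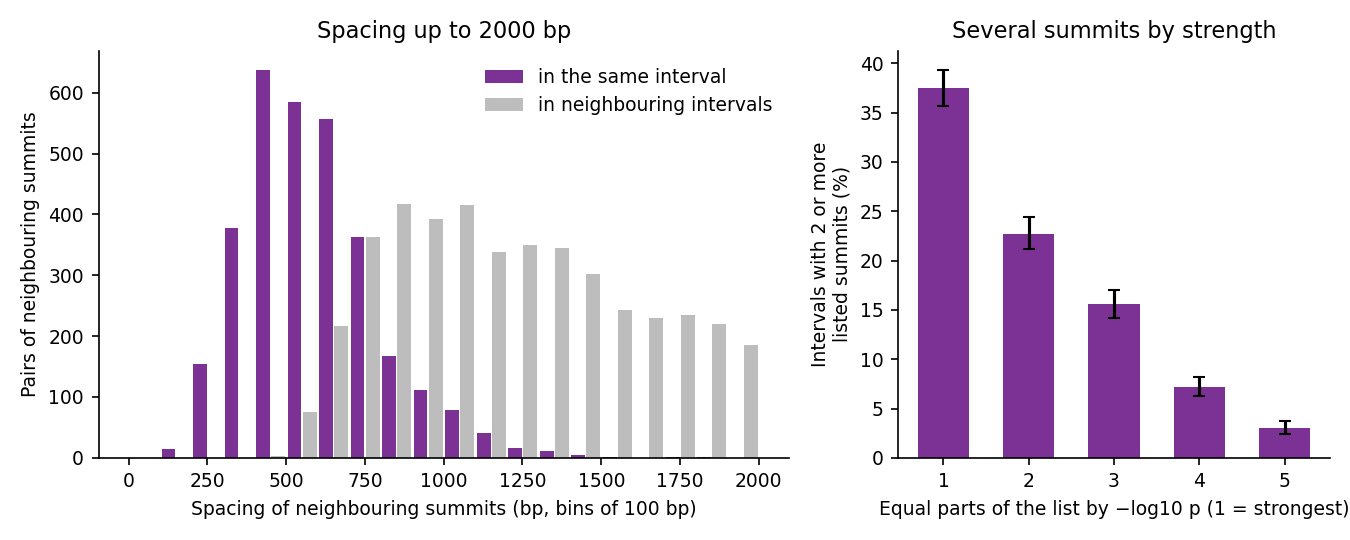
Left, number of pairs of neighbouring DIG2 summits by spacing in bins of 100 bp up to 2000 bp, for pairs in the same interval (purple) and in neighbouring intervals (grey); pairs in the same interval crowd at 300 to 800 bp, with 637 at 401 to 500 bp. Right, percent of intervals with 2 or more listed summits in 5 equal parts of the list ranked by −log10 p, with 95% Wilson intervals as bars, from 37.5% in the strongest to 3.05% in the weakest.

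The intervals with the most summits were broad domains at or beside a few genes. The widest, chr2:18368185-18374507 (TAIR10, 6323 bp), held 9 summits with folds of 2.21 to 11.1, spaced 438 to 987 bp apart, and its strongest summit was 833 bp outside AT2G44500. The interval chr1:4522652-4528888 held 8 summits, all with a fold of at least 7.03. It covered the whole of RTFL17, a gene for a small ROTUNDIFOLIA-like peptide, and 23.2% of GATL3, a galacturonosyltransferase-like gene of cell wall synthesis. Close by, chr1:4534713-4539990 held 7 summits, the strongest (fold 11.6) lying 2559 bp from RAV1, which encodes an AP2/B3 transcription factor. The second interval with 8 summits, chr1:5385042-5389515, touched CENP-C, a gene for a centromere protein, and its strongest summit (fold 8.77) was 1303 bp from AT1G15670. On chromosome 3, chr3:4118130-4122106 held 7 summits and covered 39.0% of BRG3, a gene for a RING-finger protein related to BOI, a ubiquitin ligase. Another interval with 7 summits, chr3:23347155-23352764, reached over 27.0% of PLP9, a patatin-like gene. Among the widest was also chr2:18251119-18255842, with 5 summits, which covered the whole of AT2G44130 and 48.9% of AT2G44140. All of these intervals ranked between 369 and 1813 of 13440.

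DIG2 peaks crowded around gene ends and were sparse in the bodies of genes. Gene positions came from a RefSeq table of assembly TAIR10.1 that gives neither strand nor exons, so a gene's start and end were treated alike and introns, exons and untranslated regions were not told apart. Placed at its strongest summit, a peak lay inside a protein-coding gene in 29.1% of cases, up to 1000 bp beyond a gene end in 49.9%, and farther away in 21.0%. Per Mb of sequence of each kind this was 60.6 peaks inside genes, 276 near gene ends and 93.0 farther away, against 113 over the whole genome. The first 100 bp outside a gene end had the highest density, 480 peaks per Mb, and the next 100 bp had 389. From 200 to 1500 bp outside, the density stayed between 180 and 217 per Mb. From 3000 to 5000 bp it was 91.0, and beyond 10000 bp it was 1.84.

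Inside genes the density was 276 per Mb in the first 100 bp and lowest, at 17.6 per Mb, at 400 to 500 bp from the nearer end, up to a depth of 2000 bp. Deeper in, from 1000 to 2000 bp, it was 33.1 per Mb. Peaks inside genes thus sat close to an end, at a median of 136 bp, and peaks outside sat at a median of 454 bp. Of all peaks, 1029 (7.66%) lay inside a gene and over 500 bp from any end. Position shifted with strength. The share inside genes was 22.0% in the strongest 20% of the list (20.5 to 23.6%), then 27.0%, 31.0% and 31.1%, and 34.3% in the weakest (32.6 to 36.2%). In the first 100 bp outside a gene end, the strongest 20% had 80.6 peaks per Mb and the weakest 98.8, whereas at 1000 to 1500 bp they had 47.0 and 36.1.

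Intervals with 3 or more summits stood away from genes more often than those with 1 summit. Of the 568 intervals with 3 or more, 34.2% were over 1000 bp outside a gene end (30.4 to 38.1%), compared with 19.9% of those with 1 summit (19.1 to 20.6%). Inside genes lay 16.7% of intervals with 3 or more summits and 30.8% of those with 1. Intervals with several summits are wider, so those in short spaces would run into genes, and the part of width in this difference was not tested.

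**Figure D2:**
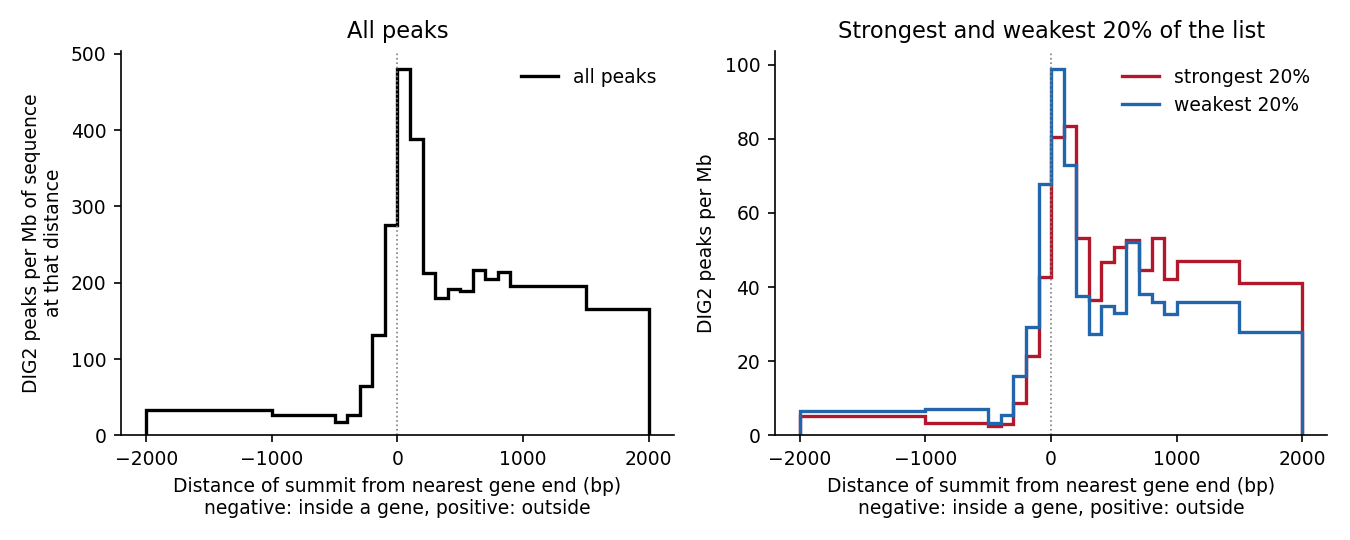
DIG2 peaks per Mb of sequence at each distance from the nearest protein-coding gene end, negative inside genes and positive outside, for all peaks (left) and for the strongest and the weakest 20% of the list (right). All peaks reach 480 per Mb in the first 100 bp outside and 17.6 per Mb at 400 to 500 bp inside; the strongest 20% lies above the weakest in each bin from 100 to 2000 bp outside.

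Summits were assigned to a gene when they lay up to 1000 bp beyond either end or up to 200 bp within it. By this rule 11045 of 27444 nuclear protein-coding genes had a DIG2 summit (40.2%), and 2649 (9.65%) had one from the strongest 20% of intervals. Separate intervals, 2 or more, reached 2437 genes (8.88% of all genes), 3 or more reached 185 (0.674%), and 4 reached 5 genes. The number of summits per gene was 1 at 7564 genes, 2 at 2685, 3 at 668, 4 at 114 and 5 at 14. A gene with 1 interval still had several summits in 1044 of 8608 cases (12.1%). Of the intervals, 28.3% reached no gene, 43.3% reached 1, 26.6% reached 2, and 224 intervals reached 3 and 5 reached 4, since neighbouring gene windows overlap.

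Genes with several intervals were mostly marked at both ends. Of the 2437, 85.1% had summits at both ends and 14.9% at 1 end alone. The window at an end, 1000 bp outside to 200 bp inside, leaves little room for 2 separate intervals. Of the nearest summits of neighbouring intervals, 10.9% stood at most 1000 bp apart. The part of the window in the share at both ends was not tested. Genes with any summit had it at the lower-coordinate end alone in 39.8%, at the higher-coordinate end alone in 41.1% and at both in 19.1%. Without strand, each of these coordinate ends mixes gene starts and gene ends, so the shares cannot compare starts with ends. The smallest gap between intervals of the same gene had a median of 1585 bp and was under 500 bp in 25.3% of genes. In the 2252 genes with 2 intervals, the stronger had a median fold of 5.56 and the weaker 3.04. Both intervals came from the strongest 20% of the list at 132 of these genes, both from the weakest at 89, and 1 from each at 147. At least 1 of the intervals was shared with a neighbouring gene at 74.3% of genes with several, and at 25.7% every interval was at that gene alone.

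The 5 genes with 4 intervals had 2 at each end, 1 close to the end and 1 farther out. AT3G19680 had summits 948 and 38 bp outside 1 end (folds 9.02 and 6.85), 196 bp inside the other (6.12) and 780 bp outside it (2.21). ATHB13, which encodes a homeodomain-leucine zipper factor, had summits 938 bp outside (4.81) and 168 bp inside (2.61) 1 end, and 20 bp (5.54) and 890 bp (3.38) outside the other. Another ATHB13 summit (3.09) lay 802 bp inside the gene, beyond the window, in an interval of its own. ATL43, a RING-finger ubiquitin ligase gene, had folds of 3.31, 3.04, 2.50 and 4.73, at 869 bp outside, 43 bp inside, 167 bp inside and 782 bp outside. AT5G23700 and AT5G13090 had weaker summits, with folds of 2.16 to 3.54 and 2.29 to 3.11. Their best intervals ranked 7908 and 8815 of 13440, in the weaker part of the list.

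Among genes with 3 intervals, those with the strongest peaks were AT3G23090 (synonym WDL3, a microtubule-associated protein family), AT4G15610, AT1G01540, AT3G12833 and SPL7, the regulator of copper homeostasis. AT3G23090 had a summit with a fold of 14.1, 322 bp outside 1 end, and summits with folds of 2.91 and 6.71 at the other. The interval with the summit of 2.91 also held a stronger one (6.64), 665 bp inside the gene and beyond the window. At AT4G15610 both outer intervals were strong, with folds of 10.8 and 12.8, and ranked 135 and 120. AT3G12833 had folds of 12.7, 8.06 and 2.71. SPL7 had a fold of 13.2 at 780 bp outside 1 end and folds of 2.67 and 6.19 at 180 and 886 bp outside the other.

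The most summits in a window was 5. CIPK15, a CBL-interacting kinase gene linked to ABA and calcium signalling, had 2 in the interval chr5:308755-309792 (folds 13.4 and 5.31) and 3 of 4 in chr5:311709-313796 (2.87, 7.28 and 4.97). MKK9, a MAP kinase kinase gene, had folds of 12.0 and 7.92 at 1 end and 3.45, 3.91 and 2.63 at the other. ZF2 (synonym AZF2), a C2H2 zinc-finger repressor gene of the stress response, had 8.72 and 5.82 at 1 end and 2.03, 7.08 and 5.47 at the other. BRG3 had 8.31, 2.54 and 2.29 at 1 end and 7.79 and 10.1 at the other. The remaining genes at the head of this order were AT1G01540, AT2G25460, ARAB-1, AT3G56880, AT3G13800 and CMPG2, all with summits at both ends. Over whole genes, including their interiors, TGA9, a bZIP factor gene of 6735 bp, and AT1G66880 had 6 intervals each. ROT3, a cytochrome P450 gene of brassinosteroid synthesis, and ATHB13 had 5.

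The labelled gene itself lay under a peak. AT5G50360, the DIG2 locus, carried the interval chr5:20505366-20507076 (1711 bp, rank 1259), with a summit 425 bp outside 1 end (fold 9.71) and a summit 568 bp inside the gene (fold 6.99). The list cannot tell reads of the endogenous gene from reads of a transgene copy, and the part of the transgene was not tested. AT3G45810, the locus in the label of the DIG1 sample, had no DIG2 summit. RefSeq gives this locus the synonym RbohJ, respiratory burst oxidase homolog J. Whether it is the gene of the DIG1 fusion cannot be told here, so nothing is read from its lack of a summit.

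Genes with several intervals differed from others in the space around them. The flanking space of a gene, summed over both sides to the nearest protein-coding genes, had a median of 2744 bp for genes with several intervals, 1886 bp for genes with 1 and 1701 bp for genes with none. When genes were cut into 5 equal parts by flanking space, several intervals were found at 3.19%, 7.58%, 9.55%, 12.1% and 12.0% of genes, from the shortest flanks to the longest. A summit was found at 30.4%, 41.5%, 43.0%, 45.1% and 41.2% of genes in the same order, so the longest flanks did not have the highest share. Gene length showed a weaker trend for several intervals, with 5.47% in the shortest 20% of genes and 8.54 to 10.3% in the other parts.

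Spaces between neighbouring genes held several peaks more often as they grew longer, up to 10 kb. Of 23810 spaces, 27.8% held a peak and 7.87% held several. Several peaks were found in 4.41% of spaces of 1001 to 2000 bp, 28.9% of those over 3000 and under 5000 bp, and 38.2% of those from 5001 to 9999 bp. In spaces over 20 kb the share was 6.20%, and the density there was 0.00606 peaks per kb, against 0.309 per kb in spaces of 501 to 1000 bp. Spaces were taken between protein-coding genes and can hold other entries. How reads with several placements in repeated sequence were treated is not known, and its part in the longest spaces was not tested. The most peaks in a space was 8. One such space lay between AT4G16770 and HB-2 (ATHB2), a homeodomain-leucine zipper factor gene of the shade response, where the strongest summit had a fold of 15.4 (rank 83) and 4 of 8 peaks were in the strongest 20%. Others with 8 lay between AT3G60520 and GATA4, between MYB55 and PPOX, a protoporphyrinogen oxidase gene, between HXK1, the glucose-sensing hexokinase gene, and ADS1, and between AT1G60010 and NAT7. With 7 peaks, the space between DWF4, a brassinosteroid synthesis gene, and U1-70K had folds of 5.26 to 12.4 and a best rank of 59. The space beside REV, a homeodomain-leucine zipper III gene, also held 7, as did those beside the proton pump gene HA2 and the leaf patterning gene BOP2. Strength varied widely in these spaces: the median fold was 7.93 beside HB-2 and 2.78 beside GATA4.

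**Figure D3:**
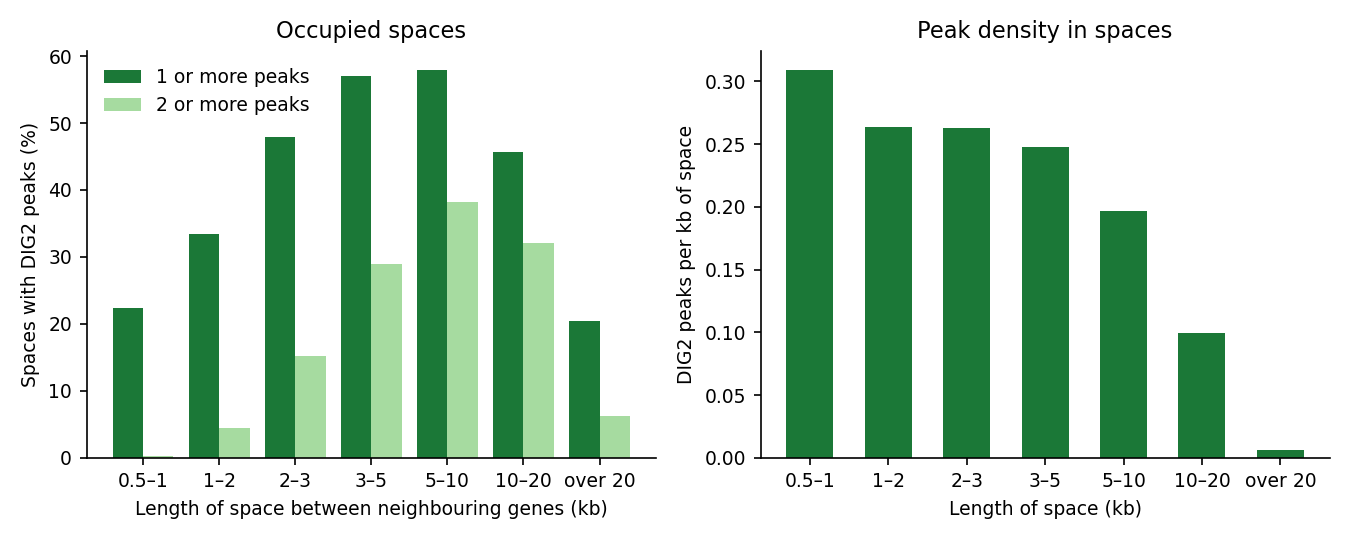
Left, percent of spaces between neighbouring protein-coding genes that hold 1 or more (dark) or 2 or more (light) DIG2 peaks, by length of the space in kb. Right, DIG2 peaks per kb of space; several peaks are most frequent at 5 to 10 kb (38.2%), and density is lowest in spaces over 20 kb (0.00606 per kb).

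Some genes were small enough to lie wholly under 1 interval. This was so for 88 genes, with a median length of 317 bp. The longest was AT1G68440 (1728 bp, 3 summits). Those with a gene symbol included AUF1, an auxin-inducible F-box gene (1551 bp), DEAR2, a DREB-type factor gene (1241 bp, 4 summits), SAUR36, a small auxin-up RNA gene (1177 bp), and EPF2, which encodes a secreted peptide that limits stomatal precursor divisions (1107 bp).

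Along the chromosomes, intervals were of like density overall and did not occur in some long stretches. Density was 106 to 117 intervals per Mb on the 5 chromosomes, single bins of 1 Mb held 0 to 213, and intervals covered 7.65 to 8.60% of the sequence. The longest stretch without a summit was 1299 kb on chromosome 1, between AT1G38131 and SKS6, with 11 protein-coding genes inside. On chromosome 2 it was 1092 kb between AT2G07180 and LCR29, with 127 genes inside, and on chromosome 5 1055 kb between PHL1 and AT5G32450, with 16. On chromosomes 3 and 4 the longest stretches were 797 kb (AT3G32980 to AT3G42180) and 733 kb (RAP2.9 to AT4G07965). The sources used here do not say how reads with several placements in repeated sequence were treated, so an empty stretch does not show that DIG2 was absent. Runs of neighbouring genes that all had a summit reached 25 genes, from AT4G30170 to AT4G30410 and from CDC27a to DEG11. The longest run of genes without one, 135, overlapped the empty stretch of chromosome 2. Pseudogenes had summits in 3.83% of 3917 cases, compared with 40.2% of protein-coding genes and 37.1% of 3480 long non-coding RNA genes. The unknown treatment of reads with several placements applies to pseudogenes too, and its part in their share was not tested. Of 326 microRNA genes 24.5% had a summit (20.2 to 29.5%). MicroRNA genes had a median length of 144 bp, against 2078 bp for protein-coding genes. Of the shortest 20% of protein-coding genes, 27.8% had a summit and 5.47% several intervals. Transfer RNA genes, with a median of 73.0 bp, had a summit in 23.8% and several intervals in 1.92%. The part of length in the shares of microRNA genes was not tested. Several intervals were found at 5 microRNA genes (1.53%), compared with 8.88% of protein-coding genes. They were MIR167d and MIR160b, whose microRNAs target auxin response factor transcripts, MIR169b, whose microRNA targets NF-YA transcripts, MIR8121 and MIR8182. Each had 2 intervals.

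Within the ABA pathway, the share of genes with several intervals ran from 0 in the AFP list to 33.3% of clade A PP2C genes. It was 10.0% for SnRK2 genes and 11.1% for the ABF and ABI5 group, near the 8.88% of all genes. With the window at 500 bp outside only, it was 0 for ABA receptors, SnRK2 genes, the ABF and ABI5 group, and ABA synthesis and breakdown. In that window it was 11.1% for PP2C genes and 2.74% for all genes. Lists of 45 gene groups were set beside the shares over all genes, 40.2% with a summit and 8.88% with several intervals. In 40 lists the share with a summit was above that of all genes, and in 37 lists the share with several was. Since this held for most lists, nothing is read from it as particular to any of them. The median flank was 1855 bp over all genes and 868 to 8698 bp over the lists. It was longer than that of all genes in 35 lists, of which 29 had a share with several intervals above 8.88%, as did 8 of the other 10. The counts are descriptions without a test, and they cover the genes of each list, which need not be a whole family. Neighbouring genes of a list can share an interval, and the Wilson intervals of the lists take no account of this.

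At the receptor step, 3 of 14 ABA receptor genes had several intervals (21.4%, 7.57 to 47.6%) and 10 had a summit. PYL5 had summits with folds of 8.75 and 8.24 in chr5:1607653-1609470 and a summit with a fold of 7.01 at its other end. PYR1 had 2.88 and 7.90 in separate intervals at its 2 ends, and PYL4 had 3.11 and 5.44. No summit was at PYL3, PYL10, PYL11 or PYL12. The strongest receptor peak belonged to a gene with 1 interval, RCAR3 (synonym PYL8, rank 196).

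At the phosphatase step, 3 of 9 clade A PP2C genes had several intervals and 8 had a summit. PP2CA (AHG3) had strong intervals at both ends, chr3:3582514-3584133 with folds of 10.4, 2.34 and 2.88 and chr3:3585506-3586588 with 12.3. HAI2 had 5.10 just inside 1 end and 12.8 at 258 bp outside the other. HAB1 had 3 weaker summits (3.18 to 4.34), and ABI2 had none.

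Among the kinases, 8 of 10 SnRK2 genes had a summit and 1 had several intervals. That gene was OST1, the SnRK2 of stomatal closure, with folds of 3.93 and 2.16 at 635 bp outside and 152 bp inside the same end. SNRK2.3 had 2 summits (4.34 and 7.08) in 1 interval, and SNRK2.2 and SNRK2.9 had none. Of the 9 genes of the ABF and ABI5 group, ABF1 had 2 intervals at 1 end, with folds of 2.52 at 855 bp and 11.9 at 97 bp outside. ABF3 had both of its summits (6.89 and 16.7) in 1 interval of rank 9, and ABI5 had 1 summit (7.29) 33 bp outside. AREB3, EEL, DPBF2 and GBF4 had none. All 5 genes of the AFP group, whose AFP members bind and hold back ABI5 and which was taken here with the related NINJA, had a summit and none had several intervals. AFP3 was the strongest, with a fold of 11.0 at 78 bp outside.

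Hormone synthesis and protective protein genes were also set beside all genes. Of 14 genes of ABA synthesis and breakdown, 8 had a summit (57.1%, 32.6 to 78.6%) and 2 had several intervals (14.3%, 4.01 to 39.9%). Both Wilson intervals hold the shares of all genes, 40.2% and 8.88%. At a −log10 p of at least 30 the share with a summit was 35.7%, against 33.3% of all genes. The genes with several intervals were the ABA hydroxylase gene CYP707A1 (folds 6.06 and 2.28) and the zeaxanthin epoxidase gene ABA1 (3.88 and 5.90). The median flank of this group was 8698 bp. Of 16 dehydrin and LEA genes 5 had several intervals (31.2%, 14.2 to 55.6%), with a median flank of 1460 bp, below that of all genes. COR47 had a fold of 4.39 at 31 bp outside 1 end and 15.3 at 163 bp inside the other, the second in an interval of rank 43. ERD14 had 4.38 at 1 end and 6.44 and 13.2 at the other.

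Light signalling and growth genes included some of the highest shares. Of 12 genes of the PIF group, bHLH factors that promote growth in the dark and their relatives, 11 had a summit (91.7%, 64.6 to 98.5%) and 5 had several intervals (41.7%, 19.3 to 68.0%). PIF3 had a fold of 14.1 at 224 bp outside 1 end and 2.05 at 124 bp inside the other. PIL6 (PIF5) had 8.91 at 1 end and 9.37 and 6.46 at the other. PAR1, PAR2 and PIF4 also had 2 intervals, and PIF7 had none. Photoreceptor genes were close to the background, with 6 of 14 having a summit and 1 several intervals. PHYA was that gene, with folds of 2.21 at 1 end and 2.90 and 4.73 at the other, and PHYB had 1 summit of 8.59. In the circadian clock 15 of 17 genes had a summit (88.2%, 65.7 to 96.7%) but 2 had several intervals (11.8%, 3.29 to 34.3%), and the median flank was 936 bp. Those were PRR7 (4.01 and 2.80) and TOC1 (2.89 and 3.51), whose best intervals ranked 5988 and 6606 of 13440. The strongest clock gene, AT5G64170, known as LNK1, had 1 summit with a fold of 18.4, 98 bp outside. ELF3 and LCL1 had none.

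Cell wall and water channel genes were marked at both ends in several cases. Of 7 cellulose synthase genes 5 had a summit and 3 had several intervals. These were CESA6 (folds 3.45 and 9.45), CESA5 (5.79 and 6.36) and CESA2 (4.80, 4.52 and 6.46), which encode subunits of primary wall cellulose synthesis. CESA4, of secondary walls, and CESA10 had none. Of 33 aquaporin genes 21 had a summit and 9 several intervals (27.3%, 15.1 to 44.2%). PIP1A had folds of 18.1 and 5.32 in an interval of rank 5 and 4.62 at its other end. PIP1C had 2.16 at 1 end and 5.63 and 15.3 at the other. Xyloglucan endotransglucosylase genes, for enzymes that remodel the wall, had a summit at 19 of 30 and several intervals at 6, with a median flank of 3793 bp. XTH25 had 3 intervals with folds of 3.80, 2.38 and 2.62. Of 33 expansin genes of the cell wall, 15 had a summit (45.5%) and 4 several intervals (12.1%). Both shares were near those of all genes.

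In the auxin pathway, Aux/IAA repressor genes had a summit at 20 of 24 and several intervals at 5, with a median flank of 3869 bp. IAA16 had folds of 5.52 at 1 end and 6.48 and 13.2 at the other. IAA6 had 3.11 and 14.2 at its ends. Auxin response factor genes had summits at 9 of 20, near the background, with a median flank of 5747 bp, yet ARF6 and ARF19 had 3 intervals each. ARF6 had folds of 8.93 at 762 bp and 3.03 at 71 bp outside 1 end and 2.95 at 108 bp inside the other. ARF19 had 5.42 and 6.24 at 1 end and 3.56 and 7.30 at the other. The listed SAUR genes, short auxin-inducible growth genes, had summits at 14 of 15 and several intervals at 4. SAUR9 had 4 summits with folds of 3.34 to 10.3. Of the JAZ repressor genes of the jasmonate pathway, 8 of 10 had a summit and 3 had several intervals. JAZ5 had folds of 11.4 at 17 bp outside 1 end and 3.27 at 490 bp outside the other.

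Homeodomain-leucine zipper factors had the highest share of genes with several intervals among the 45 lists in the window used here, a lead that did not hold under other settings. Several intervals were found at 13 of the 26 listed genes (50%, 32.1 to 67.9%), against 8.88% of all genes, and a summit at 21. This list is not the whole family: ATHB13, with 4 intervals, was not in it. Their median flank, 8099 bp, was also long against the 1855 bp of all genes, and the part of the flank in this share was not tested. With the window at 500 bp outside only the share was 11.5%, against 2.74% of all genes, and 7 lists had higher shares, up to 16.7% for the PIF group. With 3000 bp outside to 500 bp inside it was 80.8%, against 28.2%, and that of ACC synthase and oxidase genes was 92.3%. At a −log10 p of at least 30 it was 42.3%, and that of cellulose synthase genes was 42.9%. HAT1, a factor gene of the shade and auxin responses, had folds of 10.6 and 6.89 in separate intervals at the same end. Its relative HAT2 had 2.18 at 1 end and 5.13 and 10.8 at the other. HB-8, of vascular development, had 3 intervals, all weak (2.27 to 3.36). The listed ERF and DREB factor genes had several intervals at 16 of 40 (40.0%, 26.3 to 55.4%), with a median flank of 4494 bp. RAP2.4 had a summit with a fold of 14.0 in chr1:29359060-29363429 at 972 bp outside 1 end, and folds of 4.13 and 6.21 at the other. ERF12 had 2.51, 8.68 and 2.33 in 3 intervals, and RAP2.2 2.27, 2.55 and 3.37. The cold-response factor genes CBF1, CBF2 and DREB1A (CBF3) had 2 intervals each. They lie side by side, so an interval between them can count for both neighbours.

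Among the factor families, WRKY, NAC and MYB genes formed the largest lists. WRKY genes had several intervals at 17 of 67 (25.4%, 16.5 to 36.9%), NAC genes at 15 of 81 (18.5%, 11.6 to 28.3%) and MYB genes at 16 of 120 (13.3%, 8.38 to 20.6%). Their median flanks were 4241, 3464 and 5576 bp in that order. WRKY38 had folds of 2.48 at 15 bp and 15.5 at 975 bp outside the same end. NAC019, a stress-response factor gene, likewise had a weak near summit (2.59 at 143 bp) and a strong far one (12.2 at 902 bp). NAC048 and NAC049 are neighbours and shared an interval, chr3:1174559-1175630, with a fold of 11.2. MYB74 had 3 intervals with folds of 5.36 to 7.67. Among BBX and CONSTANS-like genes 7 of 27 had several, including BBX29 (6.05 and 14.0 at its ends) and COL5, with folds of 7.57 and 11.8 at 1 end and 3.73 and 4.71 at the other. GATA1 had 17.0 at 277 bp outside 1 end (rank 20) and 3.31 at the other. TCP14, of growth control, had 3 intervals with 4 summits of nearly equal fold, 7.40 to 8.83. Heat shock factor genes had several intervals at 5 of 16, among them HSFA6A (4.68 and 5.36 at 1 end, 8.97 at the other).

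In 5 lists the share with a summit was below that of all genes, though in none was the whole Wilson interval below it. The listed cytosolic ribosomal protein genes had a summit at 8 of 24 (33.3%, 18.0 to 53.3%) and several intervals at none (0 to 13.8%), with a median flank of 880 bp. Seed storage and oil body genes had a summit at 2 of 12 (16.7%, 4.70 to 44.8%), CRA1 and SESA5. SPL factor genes had a summit at 6 of 15 and several intervals at 1 (6.67%, 1.19 to 29.8%), and autophagy genes had a summit at 7 of 18 and several intervals at 3. Histone genes had a summit at 9 of 20 and cyclin genes at 18 of 40, both near the background, with several intervals at 1 and 3. SWEET sugar transporter genes had a summit at 4 of 15 (26.7%, 10.9 to 52.0%), below all genes, while 3 of these 4 had several intervals. SWEET16 had folds of 2.34, 6.90 and 2.95 in 3 intervals, SWEET8 had 6.81, 4.31 and 2.47, and SWEET2 had 2.72 and 11.6. Tubulin genes had a summit at 13 of 15 (86.7%, 62.1 to 96.3%) but several intervals at 2.

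**Figure D4:**
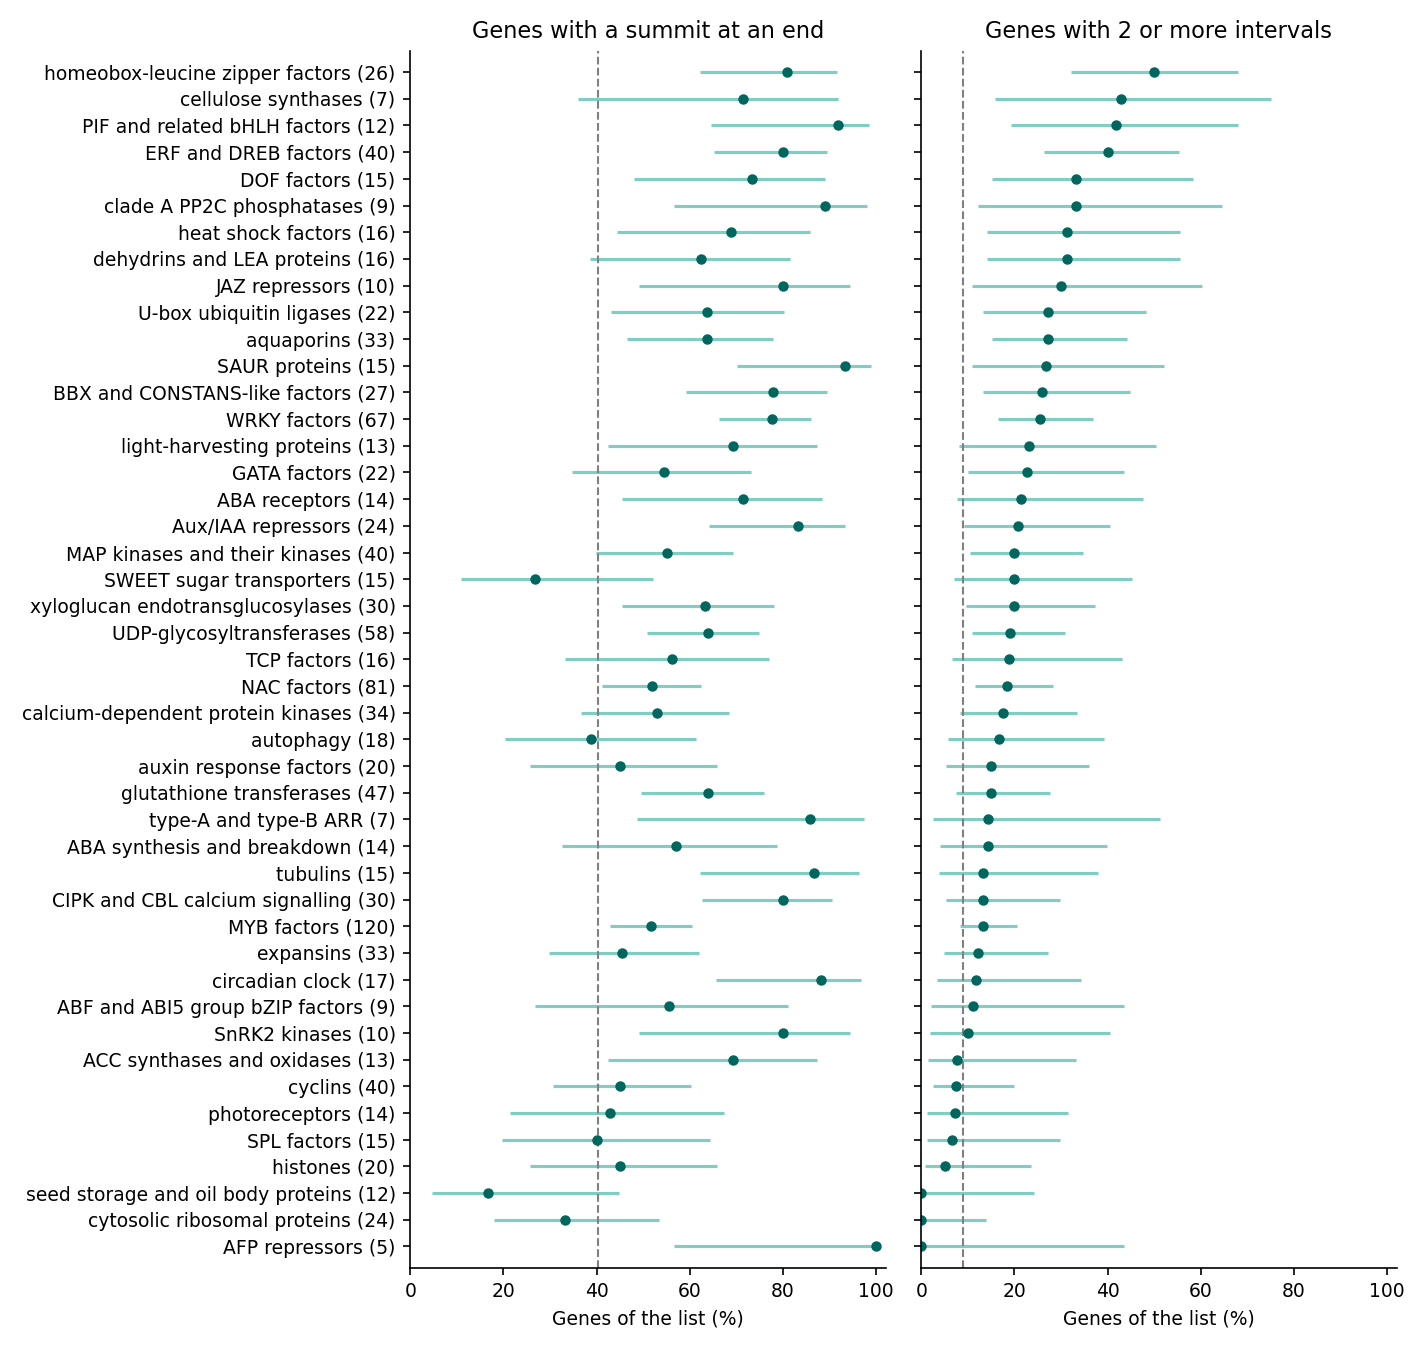
Percent of genes with a DIG2 summit at an end (left) and with 2 or more separate intervals (right) in 45 gene lists, with the number of matched genes in parentheses, points for the share and bars for 95% Wilson intervals. Dashed lines mark the shares over all 27444 genes, 40.2% and 8.88%; homeobox-leucine zipper factors stand first in the right panel at 50%, which held in this window and threshold alone among the 4 settings tried.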

How the data were processed

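Summits and intervals were read from the deposited list of the DIG2 sample. Per the submitters' processing notes, Bowtie 0.12.7, MACS2 and the TAIR10 build were used. The sources used here give no MACS2 version, no pooling and no read depth. Per the layout of the deposited list, each summit carries the authors' fold enrichment (a ratio) and −log10 p, used here to rank and describe, and an authors' score and −log10 q, not used. Peaks were set against the genes of RefSeq assembly TAIR10.1 (a table of 38312 entries). Its genes were checked by shifting summits: the fewest fell inside genes at 0 bp on chromosomes 1 to 4 and at -50 bp on chromosome 5. Coordinates printed are those of the list, counted from 1. Counting was tested on simulated data. Python 3.11.15, pandas 2.3.3, statsmodels 0.14.6 (Wilson intervals, 95%) and matplotlib 3.10.9 were used. No test was run, since each group has 1 sample.

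Members, the 45 gene lists and rules were chosen with earlier results of these data known. After values were seen, 78 entries of other families were left out of the lists, 2 lists were renamed, and lists of microRNA genes, cytochrome P450 genes and proteasome genes were dropped. Named genes were the 10 with the most separate intervals, the 10 with the most summits, those at the 5 intervals with the most summits and the 5 widest, up to 3 per list with the most intervals, unoccupied members of lists with at most 4 of them, those flanking the longest empty stretches, and the labelled genes. Genes named for spaces, covered genes, runs, microRNA genes, whole-gene counts, RCAR3, PAR2, PIF4 and the CBF genes were chosen after their values were seen. Alternatives were other windows, a −log10 p of at least 30, the strongest summit alone, joined intervals, the nearest gene end and all nuclear genes. Motifs and promoters were not searched, as no sequence was used here.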

Additional observations from a re-analysis of the deposited data

How the results depend on the processing

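The shares by position followed the distance that counts as near. Near and farther peaks were 37.0% and 33.9% at 500 bp, and 62.0% and 8.88% at 2000 bp. With every summit, 28.2% lay inside genes and 22.5% farther away. With interval midpoints, 27.8% lay inside and 51.2% near, and with a −log10 p of at least 30, 27.8% lay inside. With all nuclear entries of the gene table the shares were 31.8% inside, 51.4% near and 16.8% farther. Genes with a summit numbered 7121 when the window was 500 bp outside only, and between 9143 and 16219 under the other windows and filters. Genes with several intervals numbered 753 with that window, 7738 with 3000 bp outside to 500 bp inside, and 1548 with the nearest gene end alone. They numbered 1669 to 3109 when intervals were joined, whole genes were counted or the stricter threshold was used. The median spacing was 3887 bp with the strongest summit alone and 2968 bp at the stricter threshold. The share of intervals with several summits was 16.8% there. Lists above the background numbered 41 to 42 for a summit and 30 to 41 for several intervals under these windows and threshold. Of 276 single shares (45 lists and the background under those settings), 112 left their Wilson interval, 6 of them at the stricter threshold. No paired analysis was possible because the results come from no test and each group has 1 sample, and for the same reason no replicate could be left out. The motif alternatives were not run. Depth is unknown, so the list cannot say which weak sites were missed.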
